A study of Mus musculus with 10 samples.

Results

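MHC class II antigen presentation was followed across the kidneys of 10 mice through 7 genes chosen by their role: the chain genes H2-Aa, H2-Ab1 and H2-Eb1, the invariant chain Cd74, the exchange factor genes H2-DMa and H2-DMb1, and the coactivator Ciita. All 7 were among the 13837 genes of the table, and all 7 were among the 13197 genes that passed the filter on low values (5 or more mice at 10 or more normalized counts). The study compared whole kidneys of 5 Rragc+/+ and 5 RragcS74N/+ mice, all 3 months old and untreated as far as the labels say, to ask how an activating RagC changes an organ. RagC is a GTPase of the lysosomal machinery that reports nutrients to mTORC1. The S74N variant mimics its active, GDP-bound state, was knocked into the endogenous gene of the whole animal and was present on 1 of the alleles, since homozygotes are not viable, so every cell type of the kidney carried it. RNA was measured by QuantSeq, which sequences the 3′ end of each transcript, so that counts do not grow with transcript length. The values are read counts divided by a size factor for each library, called normalized counts here.

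MHC class II molecules are pairs of an alpha and a beta chain that show peptides from endosomes and lysosomes to CD4+ T cells. The invariant chain holds new pairs and guides them to the endosome, where proteases degrade it to a short fragment and H2-DM exchanges that fragment for an antigen peptide. Dendritic cells, macrophages and B cells make these genes at a high level through Ciita, and interferon gamma can induce Ciita in other cells, epithelium and endothelium included. In whole kidney, fewer cells of a type and less RNA per cell cannot be told apart.

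Reads assigned to genes numbered 6501552 to 7856363 per library in Rragc+/+ and 6872310 to 7996087 in RragcS74N/+. The library codes in the sample titles form separate runs of numbers, a lower one with Rragc+/+ replicates 1 and 2 and RragcS74N/+ replicate 1 and a higher one with the other 7 mice. The labels do not say what the codes stand for. The kidney marker Slc34a1, the phosphate transporter of the proximal tubule, was present at 26565 to 33360 normalized counts in all libraries. Rragc itself had 285 ± 42.3 normalized counts in Rragc+/+ and 216 ± 23.6 in RragcS74N/+ (mean ± SD, n = 5 mice each), a log2 fold change of -0.40 ± 0.115 (SE, limma, adjusted p = 0.0678; DESeq2 adjusted p = 0.0312), and a count does not show the base change that defines the genotype.

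The class II genes share a promoter module to which RFX, CREB, NF-Y and, through them, Ciita bind, and its sequence is shown because the members were examined as genes that move together. RefSeq windows of 300 bases (250 before to 50 after the annotated start, GRCm38.p6) were held for 4 members, H2-Aa, H2-Eb1, H2-DMa and H2-DMb1, and not for H2-Ab1, Cd74 and Ciita. The stretches below carry an X box motif (GNAAC, 3 free bases and TGATG, or GNAAC, 2 free bases and TGACG) and, after it, the Y box core (GATTGG), both in capitals and not overlapping, each read 5′ to 3′ on the strand of the gene. They lie at chr17:34287852-34287919 on the minus strand for H2-Aa, chr17:34305761-34305827 on the plus strand for H2-Eb1 and chr17:34153082-34153149 on the plus strand for H2-DMb1.
H2-Aa: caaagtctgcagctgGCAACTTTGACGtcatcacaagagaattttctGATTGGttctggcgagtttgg
H2-Eb1: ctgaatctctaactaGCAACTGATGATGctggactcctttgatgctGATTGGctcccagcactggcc
H2-DMb1: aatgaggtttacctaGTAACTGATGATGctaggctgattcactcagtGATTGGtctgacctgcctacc

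The X motif began at position -81 of H2-Aa, -91 of H2-Eb1 and -94 of H2-DMb1 relative to the annotated start, and 20, 18 and 19 bases separated it from the Y core. Among all 32851 windows searched on both strands, 0.268% held either X motif, 16.1% held GATTGG and 0.0609% held both. The letters were chosen after these windows had been looked at, so the matches are a description of the sequences and not evidence of binding. H2-DMa had 2 annotated starts, and the window of the second held GATTGG at position -199 while neither held an X motif as spelled here.

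Of the 7 members, none was called different between the genotypes, against 3.69% of all genes tested (limma on log2(normalized count + 1), adjusted p under 0.05, 220 genes higher and 267 lower in RragcS74N/+). The members' log2 fold changes ran from -0.44 to 0.39, and their median of 0.01 stood beside a median of 0.00 over all genes. At an unadjusted p under 0.05 limma named 1 member, Cd74, against 15.4% of all genes, and at an adjusted p under 0.05 edgeR and DESeq2, run on the recovered read counts, also called 0 members, against 3.64% and 4.91% of all genes. No member separated the genotypes mouse by mouse, which 5.0% of all genes did. With 5 mice in each group the intervals are wide, and the narrowest of them on the log2 scale, that of H2-Eb1, ran from 0.862-fold to 1.26-fold.

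**Figure D1:**
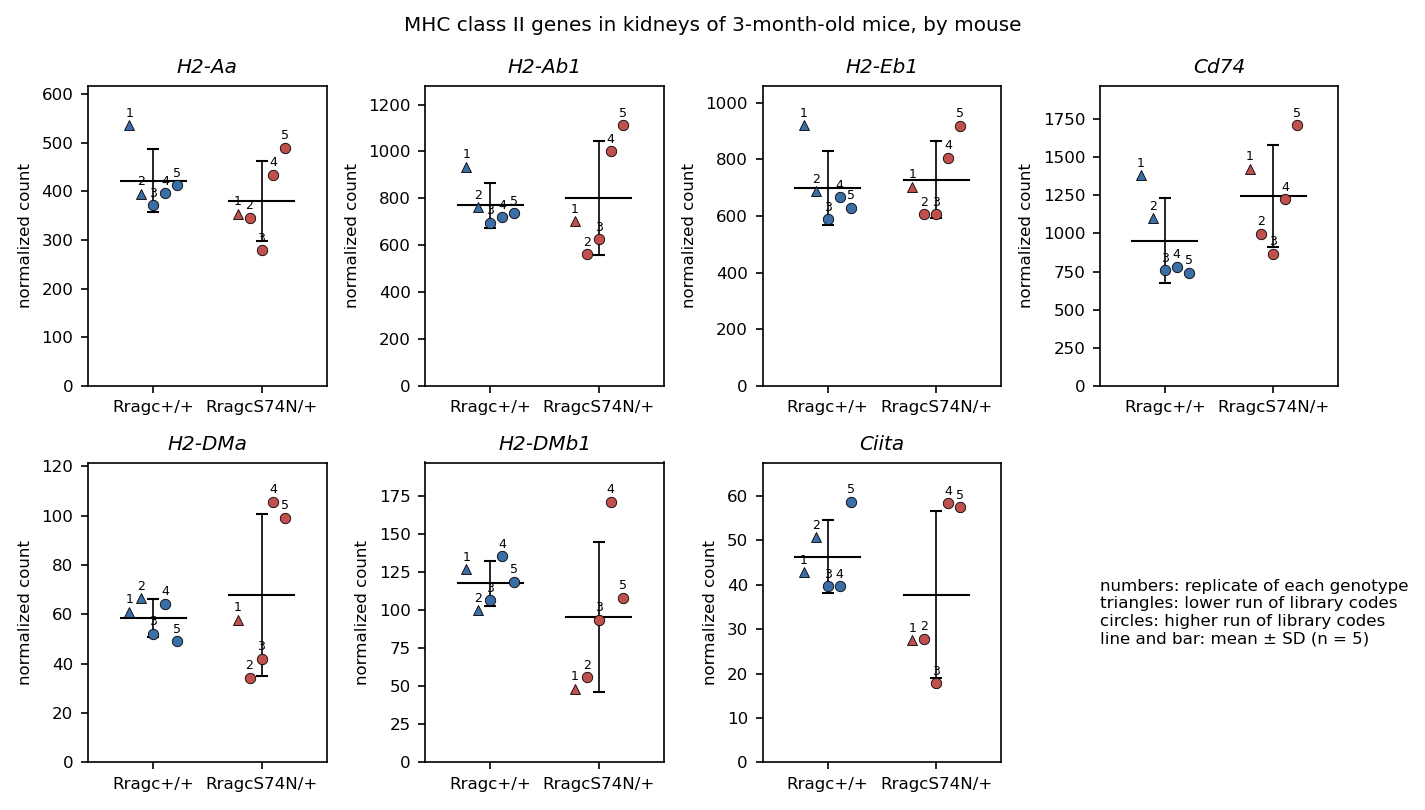
Normalized count (linear axis from 0) of each class II gene in each of 10 kidneys, with the genotypes on the horizontal axis, replicate numbers above the points, triangles for the lower and circles for the higher run of library codes, and the line and bar for the mean ± SD of 5 mice. The genotypes overlap in every panel, and for H2-DMa, H2-DMb1 and Ciita the RragcS74N/+ points reach both below and up to or above the Rragc+/+ points.

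H2-Aa, the alpha chain of the I-A molecule, stood at 536, 395, 371, 397 and 412 normalized counts in Rragc+/+ replicates 1 to 5 and at 354, 346, 278, 434 and 489 in RragcS74N/+ replicates 1 to 5. The 3 lowest values of all 10 belonged to RragcS74N/+ replicates 1 to 3, while replicates 4 and 5 lay within the Rragc+/+ range. The means were 422 ± 65.3 and 380 ± 82.2 (SD, n = 5 mice each), and the log2 fold change of -0.16 ± 0.137 (SE) did not pass (limma adjusted p = 0.642, exact two-sided permutation p = 0.397).

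H2-Ab1 encodes the beta chain that pairs with H2-Aa. Its values were 936, 763, 696, 719 and 737 in Rragc+/+ and 702, 563, 625, 1002 and 1112 in RragcS74N/+, in the same order of replicates. RragcS74N/+ replicates 2 and 3 fell below all Rragc+/+ mice and replicates 4 and 5 above all of them, which left the means close together at 770 ± 95.7 and 801 ± 242. The log2 fold change was 0.01 ± 0.156 (limma adjusted p = 0.983, exact permutation p = 0.817), and its sign turned to -0.02 under quantile normalization.

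H2-Eb1, the beta chain of the I-E molecule, measured 921, 688, 590, 667 and 630 in Rragc+/+ and 704, 606, 607, 806 and 920 in RragcS74N/+. Here the highest values of the genotypes were nearly equal, and all RragcS74N/+ mice lay inside the Rragc+/+ range. Its log2 fold change was 0.06 ± 0.129 (limma adjusted p = 0.888, exact permutation p = 0.746), with a sign that turned to -0.03 without RragcS74N/+ replicate 5. H2-Ea, the alpha chain that I-E needs at the cell surface, had no row in the table, nor did H2-Eb2, H2-Oa or H2-Ob. The H2-Eb1 counts therefore do not show that an I-E molecule was made, and why the row of H2-Ea is absent was not tested.

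Cd74, the invariant chain, was the member with the highest positive fitted change, while those of H2-DMb1 (-0.44) and Ciita (-0.41) were larger in size and negative. Cd74 measured 1380, 1100, 759, 781 and 743 in Rragc+/+ and 1426, 999, 868, 1224 and 1711 in RragcS74N/+. Replicates 1 and 2 of Rragc+/+, both from the lower run of library codes, stood apart from the other 3 of their genotype and overlapped the RragcS74N/+ values. The means were 953 ± 281 and 1245 ± 336, a log2 fold change of 0.39 ± 0.182 with a 95% interval from 0.01 to 0.77 (limma unadjusted p = 0.0463, adjusted p = 0.311). On its own values the exact two-sided permutation p was 0.167.

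Within the higher run of codes the 3 Rragc+/+ values of Cd74 (743 to 781) lay below all 4 RragcS74N/+ values (868 to 1711). In that run 16.4% of all genes did not overlap, 8.55% with RragcS74N/+ higher, and the log2 fold change of Cd74 was 0.61 (limma unadjusted p = 0.0040, adjusted p = 0.0886), where 16.2% of all genes had an unadjusted and 2.62% an adjusted p under 0.05. In the lower run the values were 1380 and 1100 in Rragc+/+ and 1426 in the single RragcS74N/+ mouse. A limma fit over all mice with the run as a covariate gave 0.50 (adjusted p = 0.0549), where 6.30% of all genes were called. Over all 22 alternatives the adjusted p of Cd74 stayed between 0.0549 and 0.578.

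H2-DMa and H2-DMb1 encode the chains of the peptide exchange factor, and both were more variable in RragcS74N/+. H2-DMa had 61.2, 66.7, 52.2, 64.3 and 49.1 normalized counts in Rragc+/+ and 57.9, 34.4, 42.0, 106 and 99.3 in RragcS74N/+. H2-DMb1 had 127, 99.6, 107, 135 and 119 in Rragc+/+ and 48.4, 55.7, 93.5, 171 and 108 in RragcS74N/+. The highest value of both genes was in RragcS74N/+ replicate 4, and the lowest values of both were also in RragcS74N/+, in replicate 2 for H2-DMa and replicate 1 for H2-DMb1.

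Neither chain passed the test, with log2 fold changes of 0.08 ± 0.257 for H2-DMa (limma adjusted p = 0.929, exact permutation p = 0.532) and -0.44 ± 0.251 for H2-DMb1 (limma adjusted p = 0.448, exact permutation p = 0.365). The sign of H2-DMa rested on single mice, since it was -0.11 without RragcS74N/+ replicate 4 and -0.09 without replicate 5. H2-DMb1 has a near-identical neighbour, H2-DMb2, so reads may have been divided between them. H2-DMb2 was measured at 10.7 to 27.9 normalized counts in Rragc+/+ and 11.4 to 41.8 in RragcS74N/+ (log2 fold change 0.09 ± 0.348, limma adjusted p = 0.937).

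Ciita, the coactivator that switches on the class II genes, had 42.9, 50.7, 39.7, 39.7 and 58.7 normalized counts in Rragc+/+ and 27.5, 27.9, 17.9, 58.3 and 57.4 in RragcS74N/+. The RragcS74N/+ mice fell into 3 below every Rragc+/+ mouse and 2 near the highest of them. The means were 46.3 ± 8.26 and 37.8 ± 18.8, and the log2 fold change of -0.41 ± 0.274 did not pass (limma adjusted p = 0.535, exact permutation p = 0.389). Ciita rested on 17 to 59 reads per library, the fewest among the members.

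The SD of the RragcS74N/+ mice over that of the Rragc+/+ mice was 4.27 for H2-DMa, 3.40 for H2-DMb1, 2.53 for H2-Ab1 and 2.27 for Ciita. It was 1.26 for H2-Aa, 1.20 for Cd74 and 1.04 for H2-Eb1. The coefficient of variation was 13.1% in Rragc+/+ and 48.4% in RragcS74N/+ for H2-DMa, 12.3% and 51.6% for H2-DMb1, and 17.8% and 49.6% for Ciita. For H2-Ab1 it was 12.4% and 30.2%, for H2-Aa 15.5% and 21.6%, whereas for Cd74 (29.5% and 27.0%) and H2-Eb1 (18.5% in both) it was alike. The observed SD over that of counting error alone was 0.999 in Rragc+/+ and 4.03 in RragcS74N/+ for H2-DMa, 1.32 and 5.07 for H2-DMb1, and 1.21 and 3.09 for Ciita. It was 3.43 and 8.65 for H2-Ab1, 3.17 and 4.27 for H2-Aa, 4.89 and 5.05 for H2-Eb1, and 9.13 and 9.66 for Cd74. A wider spread was not particular to the members. The same ratio of SDs was 4.72 for the protease gene Ctss and 4.71 for the kidney epithelial gene Aqp2. It was 0.644 for Umod and 0.599 for Slc12a3, also epithelial, and these genes were named after their values were seen. The share of all genes with a ratio as high was not determined. The difference in spread was seen in the values and was not tested.

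The members' levels were correlated to different degrees across mice. Over the 21 pairs of members and 10 mice, Pearson's r on log2(normalized count + 1) had a median of 0.641 (0.740 within the higher run of codes) and ran from -0.159 for Cd74 with H2-DMb1 to 0.910 for H2-Ab1 with H2-DMa. These values describe libraries that share depth and tissue composition and carry no test. For H2-Ab1 with H2-Eb1, r was 0.902 over all mice. With 5 mice in a genotype, too few for an r to be given, only signs and the order between genotypes are described, and they carry little information. All 6 pairs with Ciita had an r below 0 in Rragc+/+, some of them close to 0, and above 0 in RragcS74N/+. In 15 of the 21 pairs r was higher among the RragcS74N/+ than among the Rragc+/+ mice, a difference that was not tested. The pairs share genes and are not independent. In Rragc+/+ the SDs of H2-DMa, H2-DMb1 and Ciita were 0.999, 1.32 and 1.21 times that of counting error, which by itself lowers r. For Cd74, r was 0.833 with H2-Eb1, 0.650 with H2-Ab1, 0.565 with H2-DMa, 0.504 with H2-Aa and 0.185 with Ciita. After the genotype means were subtracted it was 0.889 with H2-Eb1, 0.801 with H2-Aa, 0.730 with H2-Ab1, 0.602 with H2-DMa, 0.467 with Ciita and 0.053 with H2-DMb1.

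**Figure D2:**
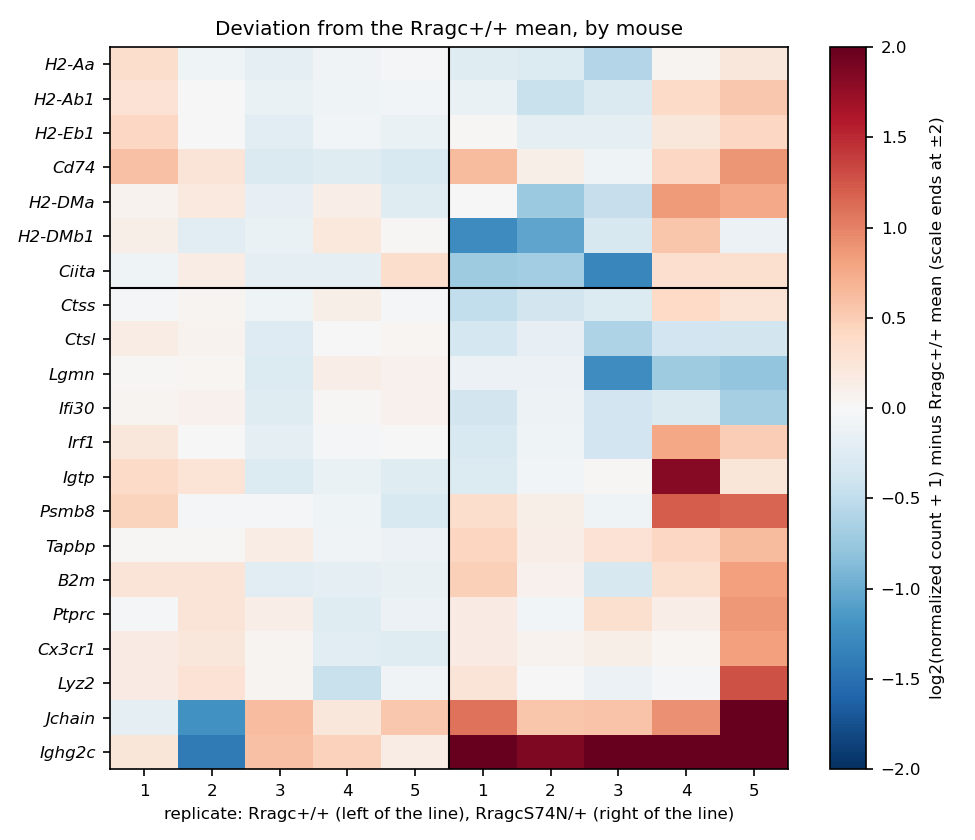
Each cell is log2(normalized count + 1) of a gene in a mouse minus the Rragc+/+ mean of that gene, red above and blue below, with the 7 members over the horizontal line and 14 other genes, picked after their values were seen, under it. RragcS74N/+ replicates 1 to 3 are mostly blue for Ciita, H2-DMb1 and H2-Aa, and replicates 4 and 5 are mostly red across the members.

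RragcS74N/+ replicates 4 and 5 were then set beside all Rragc+/+ mice, as mice chosen after the members' values were seen. The members' mean z-score was highest in these mice, so the choice itself favours members, and genes that vary with them, over the share of all genes. The shares are therefore given for scale, and an excess over them is not evidence. Of the 7 members 3 were above all Rragc+/+ mice in replicate 4, 3 in replicate 5 and 2 in both, against 17.1%, 22.2% and 7.55% of all genes tested. Of 10 genes of the MHC class I pathway, 7 stood above all Rragc+/+ mice in both replicates, among them the immunoproteasome subunit Psmb8 at 148 and 143 normalized counts (at most 86.7 in Rragc+/+). Of 10 genes of the interferon gamma axis, 7 were above all Rragc+/+ mice in replicate 4, 4 in replicate 5 and 3 in both, and the GTPase Igtp, at 517 in replicate 4 (120 to 171 in the other RragcS74N/+ mice, 120 to 189 in Rragc+/+), was high in that mouse alone. Genes within the leukocyte lists differed from each other. Of 6 pan-leukocyte markers 4 were above all Rragc+/+ mice in replicate 5 and 0 in replicate 4, with Ptprc, the phosphatase CD45, at 174 in replicate 5 (80.4 to 115 in Rragc+/+), while Cytip was below all of them there at 84.7. Of 11 macrophage markers 6 were above in replicate 5 and 1 in replicate 4, and of 6 plasma cell markers all 6 and 4, with Jchain, the joining chain of secreted IgM and IgA, at 513 in replicate 5 (40.02 to 145 in Rragc+/+). Of 6 dendritic cell markers 1 was above in replicate 4 and 1 in replicate 5, with 0 in both. Of 9 endosomal processing genes 1 was above in replicate 4 and 2 in replicate 5, and the 9 class II promoter factors gave the same counts. Of 6 endothelial markers 0 were above in either. The part of these genes in the members' values was not tested, and Igtp and Jchain were named after their values were seen.

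The ratio of members within a mouse does not depend on library size. Cd74 over H2-Aa was 2.58, 2.79, 2.05, 1.97 and 1.80 in Rragc+/+ replicates 1 to 5 and 4.03, 2.89, 3.12, 2.82 and 3.50 in RragcS74N/+ replicates 1 to 5. Each RragcS74N/+ mouse lay above each Rragc+/+ mouse, and the means were 2.24 ± 0.422 and 3.27 ± 0.499. H2-Eb1 over H2-Aa was 1.53 to 1.74 in Rragc+/+ and 1.75 to 2.18 in RragcS74N/+, without overlap but with the nearest mice at 1.743 and 1.753. That gap is smaller than counting error allows to be told apart, since H2-Aa alone had a counting interval of 311 to 383 around 346 in RragcS74N/+ replicate 2.

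H2-Ab1 over H2-Aa, the beta over the alpha chain of the same molecule, was 1.75 to 1.93 in Rragc+/+, and 4 of 5 RragcS74N/+ mice lay above that range and 1 below it. Cd74 over H2-Ab1 overlapped between the genotypes (1.01 to 1.48 and 1.22 to 2.03). Of the 21 pairs of members, 2 did not overlap, both with H2-Aa, beside 5.0% of all pairs of genes tested. Against H2-Aa as the reference, 1.64% of all genes were higher in every RragcS74N/+ mouse. H2-Aa was singled out as a reference after the values had been seen, the ratios carry no test, and the higher values of Cd74 over H2-Aa in Rragc+/+ were those of the lower run of codes.

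**Figure D3:**
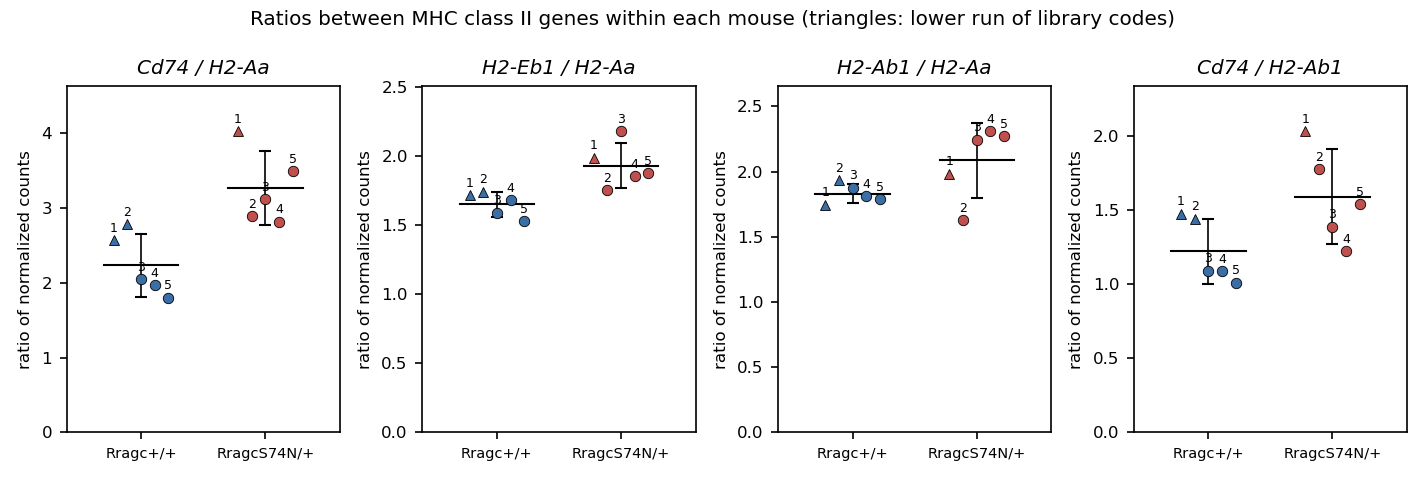
Ratio of normalized counts (linear axis from 0) of 4 pairs of class II genes within each mouse, by genotype, with replicate numbers, triangles for the lower run of library codes, and the line and bar for the mean ± SD of 5 mice. The genotypes do not overlap for Cd74 over H2-Aa and H2-Eb1 over H2-Aa, and overlap for the other 2 pairs.

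The endosomal processing genes, mostly proteases that cut the invariant chain and antigens, had lower fitted values in 6 of 9 cases, and 1 of 9 passed the test, downward (2.02% of all genes were called lower), with 4 of 9 at an unadjusted p under 0.05 (15.4% of all genes). That gene was the protease cathepsin L, Ctsl, at 1375 ± 137 in Rragc+/+ and 1058 ± 115 in RragcS74N/+ (log2 fold change -0.38 ± 0.094, limma adjusted p = 0.0314, range over alternatives 0.00657 to 0.175). The call was lost in 9 of 22 alternatives, 7 of them fits without a mouse (Rragc+/+ replicate 1, 2, 4 or 5 or RragcS74N/+ replicate 1, 3 or 4). It was below all Rragc+/+ mice in 4 of 5 RragcS74N/+ mice. The most abundant of the list, cathepsins D and B, had -0.07 ± 0.092 for Ctsd (limma adjusted p = 0.801) and -0.22 ± 0.087 for Ctsb (limma adjusted p = 0.222). Next below Ctsl by adjusted p, and named after their values were seen, were the asparaginyl endopeptidase Lgmn (-0.60 ± 0.171, limma adjusted p = 0.064) and the thiol reductase Ifi30 (-0.36 ± 0.105, limma adjusted p = 0.0702). DESeq2 called Ifi30 besides Ctsl (DESeq2 adjusted p = 0.0357), and Lgmn passed in limma without RragcS74N/+ replicate 1 or 2, with a lowest adjusted p of 0.0219. These proteases are also made by tubule cells, and the list's median was -0.09.

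Cathepsin S, Ctss, the protease of antigen-presenting cells that finishes the cut of the invariant chain, was low in RragcS74N/+ replicates 1 to 3 and high in 4 and 5, as Ciita was. It stood at 136 to 158 normalized counts in Rragc+/+, at 103, 112 and 120 in RragcS74N/+ replicates 1 to 3 and at 192 and 175 in replicates 4 and 5. Its log2 fold change was -0.09 ± 0.156 (limma adjusted p = 0.846), and it too was named after its values were seen.

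**Figure D4:**
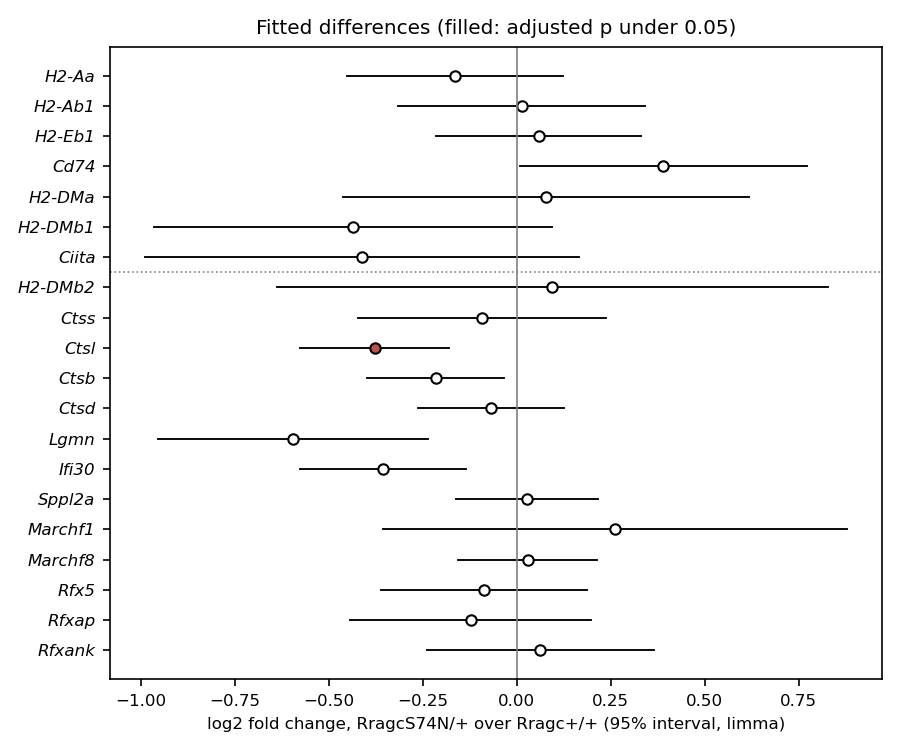
Fitted log2 fold change of RragcS74N/+ over Rragc+/+ (horizontal axis) with its 95% limma interval for the 7 members (above the dotted line) and for 13 other genes of the pathway, with filled points where the adjusted p is under 0.05. The intervals of 6 members cross 0, that of Cd74 begins at 0.01, and Ctsl is the filled point.

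Among the factors that bind class II promoters, 0 of 9 tested passed in limma, edgeR or DESeq2 (0 in limma at an unadjusted p under 0.05), with a median of -0.09. The most abundant were Nfyc, a subunit of NF-Y, at -0.20 ± 0.104 (limma adjusted p = 0.368), and Creb1 at -0.18 ± 0.111 (limma adjusted p = 0.493). The RFX subunit Rfx5, part of the complex that recruits Ciita and named after its values were seen, stood at 87.6 to 117 normalized counts in Rragc+/+ and 84.6 to 106 in RragcS74N/+. The Rfx5 values of the genotypes overlapped, as did those of Ciita.

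The interferon gamma axis, from receptor to target genes, held 10 tested genes, and 0 passed in limma, edgeR or DESeq2 (0 in limma at an unadjusted p under 0.05). Its median was 0.10, and the kinase Jak1 was at -0.02 ± 0.089 (limma adjusted p = 0.954). The list's summed level reached 2828 normalized counts in RragcS74N/+ replicate 4, against 1607 to 2242 in the other RragcS74N/+ mice and 1737 to 1906 in Rragc+/+.

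The MHC class I pathway, which shows peptides from the cytosol, had higher fitted values in 9 of 10 genes, and 1 of 10 passed (1.67% of all genes were called higher). It was tapasin, Tapbp, which loads peptides onto class I, at 378 ± 27.3 in Rragc+/+ and 493 ± 62.6 in RragcS74N/+ (log2 fold change 0.38 ± 0.098, limma adjusted p = 0.0401, range over alternatives 0.0106 to 0.136). That call was lost in 10 of 22 alternatives, 7 of them without a mouse (Rragc+/+ replicate 1, 2, 4 or 5 or RragcS74N/+ replicate 1, 4 or 5). The light chain B2m was at 0.28 ± 0.162 (limma adjusted p = 0.457) and the heavy chain H2-D1 at 0.09 ± 0.105 (limma adjusted p = 0.755). Co-stimulatory genes gave 0 of 3 called in limma, edgeR or DESeq2 (0 in limma at an unadjusted p under 0.05), among them Icam1 at 0.00 ± 0.177 and Cd83 at 0.38 ± 0.311.

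Markers of the cells that make class II were read beside the members. Of the 10 dendritic cell markers, 6 were in the table and 4 were tested, and 0 passed in limma, edgeR or DESeq2 (0 in limma at an unadjusted p under 0.05). Their summed level was 143 to 172 normalized counts in Rragc+/+ and 124 to 165 in RragcS74N/+, with Zbtb46, a transcription factor of classical dendritic cells that endothelium also makes, at -0.19 ± 0.134 (limma adjusted p = 0.552) and the lectin Clec10a at 0.26 ± 0.280 (limma adjusted p = 0.743). Of the 4 tested, 2 had higher and 2 lower fitted values. Batf3 and Clec9a, named after their values were seen, missed the filter, with 0 to 23 and 4 to 16 reads per library. Both had lower means in RragcS74N/+, 12.4 ± 5.68 and 5.17 ± 3.77 for Batf3 and 9.42 ± 4.11 and 7.25 ± 2.84 for Clec9a (Rragc+/+ first). Flt3, Cd209a, Ccr7 and Mycl had no row.

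Of 11 macrophage markers, 6 had higher and 5 lower fitted values, and 3 had an unadjusted p under 0.05 in limma (15.4% of all genes). Among them 1 passed, downward: Ms4a7, a membrane protein of macrophages with 1 to 19 reads per library. It stood at 14.9 ± 2.64 in Rragc+/+ and 5.01 ± 4.96 in RragcS74N/+ (log2 fold change -1.78 ± 0.471, limma adjusted p = 0.0429, range over alternatives 0.00602 to 0.196). It was lost in 12 of 21 alternatives, among them edgeR and the fits without any 1 of the Rragc+/+ mice or without RragcS74N/+ replicate 1, 3 or 4. The other 2 went opposite ways and were named after their values were seen. They were C1qb at 0.39 ± 0.158 (limma unadjusted p = 0.0230, adjusted p = 0.220) and Cd68 at -0.51 ± 0.239 (limma unadjusted p = 0.0481, adjusted p = 0.318). C1qb was above all Rragc+/+ mice in 4 of 5 RragcS74N/+ mice. Csf1r, the receptor for the macrophage growth factor, was at 0.04 ± 0.117 (limma adjusted p = 0.904) and Lyz2 at 0.28 ± 0.212 (limma adjusted p = 0.608). The list summed to 1501 to 1996 normalized counts in Rragc+/+ and 1633 to 2155 in RragcS74N/+. Of 6 pan-leukocyte markers, 4 had higher and 2 lower fitted values, with a median of 0.19. Among them 1 passed, downward, against the direction of most of its list. It was Cytip, a regulator of leukocyte adhesion, from 148 ± 14.2 to 90.6 ± 7.87 (log2 fold change -0.70 ± 0.116, limma adjusted p = 0.00145). Ptprc was at 0.29 ± 0.160 (limma adjusted p = 0.433).

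The B cell list had a single row in the table, Ighm, the heavy chain of IgM, at 19.2 to 38.3 normalized counts in Rragc+/+ and 32.6 to 177 in RragcS74N/+ (log2 fold change 0.97 ± 0.358, limma adjusted p = 0.175), while the defining genes Ms4a1, Cd79a and Pax5 had none. Plasma cell genes, from cells that make little class II, gave 2 of 5 called, both higher: Ighg2b at 2.58 ± 0.399 (limma adjusted p = 0.000785) and Ighg2c at 3.29 ± 0.512 (limma adjusted p = 0.000793), the immunoglobulin heavy chains of IgG2b and IgG2c. Both stood above all Rragc+/+ mice in all 5 RragcS74N/+ mice, whereas no class II member did. Igha, the heavy chain of IgA, was at 0.63 ± 0.313 (limma adjusted p = 0.359).

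T cell genes gave 0 of 3 called in limma, edgeR or DESeq2 (1 in limma at an unadjusted p under 0.05), with Trac at -0.08 ± 0.222 and Lck at -0.04 ± 0.338. The third, Cd8a, a chain of the CD8 coreceptor, was at 0.999 ± 0.393 (limma unadjusted p = 0.0207, adjusted p = 0.209), with 2.27 to 18.2 normalized counts in Rragc+/+ and 11.9 to 18.02 in RragcS74N/+, and was named after its values were seen. Endothelial genes gave 0 of 6 with any of these tools (2 in limma at an unadjusted p under 0.05), with the VEGF receptor Kdr at -0.39 ± 0.138 (limma adjusted p = 0.149, and 0.0406 with the run covariate) and Plvap at -0.33 ± 0.155 (limma adjusted p = 0.306). Of 8 epithelial genes 2 passed in limma and edgeR, both lower: Umod, uromodulin of the thick ascending limb, at -0.999 ± 0.136 (limma adjusted p = 0.000198), and Slc12a3, the sodium chloride transporter of the distal tubule, at -1.20 ± 0.094 (limma adjusted p = 2.61e-07). DESeq2 called these and, in the other direction, Aqp2, the water channel of the collecting duct, at 579 ± 68.1 in Rragc+/+ and 875 ± 321 in RragcS74N/+ (DESeq2 adjusted p = 0.0287, limma adjusted p = 0.0887). The part of cell makeup in the class II values was not tested.

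The genes whose pattern was most like that of the members were sought among the other 13190 genes, by Pearson's r over 10 mice with the mean z-score of the 7 members. The highest were the predicted genes Gm43696 (r = 0.918, rho = 0.903) and Gm37234 (r = 0.894, rho = 0.891) and the interferon-responsive transcription factor Irf1 (r = 0.877, rho = 0.927). Without the 2 mice farthest from the median of the score, r was 0.865 for Gm43696, 0.868 for Gm37234 and 0.813 for Irf1. Irf1 measured 111 to 148 normalized counts in Rragc+/+, 96.7 to 120 in RragcS74N/+ replicates 1 to 3 and 217 and 178 in replicates 4 and 5.

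The next 7 were Jmjd6, Pik3ap1, Prkcb, Nbl1, Arrb2, Lgals3bp and Pygo2, with r from 0.876 down to 0.839. After the genotype means were subtracted, the 5 highest were Psmb8, a subunit of the immunoproteasome (r = 0.960), Fam114a1 (0.945), Arhgef17 (0.941), Lgals3bp (0.918) and Gm43696 (0.917). Over all mice Psmb8 had r = 0.758, and without the 2 mice farthest from the median 0.341, and Fam114a1 went from 0.697 to 0.184 and Lgals3bp from 0.844 to 0.653, so the likeness of Psmb8 and Fam114a1 over all mice rested on these mice. For Arhgef17, r went from 0.534 to 0.844. These genes were picked as the highest of 13190, and their r values carry no test.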

How the data were processed

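Total RNA from whole kidney was made into QuantSeq 3′ (FWD) libraries, 1 per mouse. Per the labels and the study's methods, the authors aligned reads with TopHat2 2.0.10, Bowtie 1.0.0 and SAMtools 0.1.19 to GRCm39, and counted them by strand with HTSeq 0.6.1 on GENCODE genes. The values the authors deposited are a normalized signal, read counts divided by 1 size factor per library (0.882 to 1.12), and 100% of values came out as whole reads (tolerance 0.01). The table's lowest gene mean was 5.64, so genes below may have been removed. The promoter windows came from RefSeq on GRCm38.p6, and no coordinate was converted.

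Genotypes were compared with limma 3.58.1 (R 4.3.3, trended eBayes, two-sided, no covariate) on log2(normalized count + 1) for 13197 genes, adjusted by Benjamini-Hochberg (threshold 0.05). Each member also had an exact permutation test over 252 splits of the mice (smallest possible p 0.00794). edgeR 4.0.16 and DESeq2 1.42.0 on recovered reads, other pseudocounts, filters and scalings, the run of library codes as a covariate and leaving out each mouse were alternatives. Code was tested on simulated data, where the share of false calls exceeded the nominal threshold in all 3 tools. It was highest in DESeq2, on which alone the calls of Ifi30, Aqp2 and Rragc over all mice rest. The excess in limma bears on the calls of Ctsl, Tapbp and Ms4a7 (limma adjusted p = 0.0314, 0.0401 and 0.0429). The fits without a mouse, and that of the higher run alone, which was chosen after seeing the data, used the same 13197 genes. They first had their own filter, and the members called were 0 in both versions.

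The members and gene lists were chosen with earlier results of these data known. Named genes are the members, the called and the 2 most abundant genes of each list, the genes most like the members, and Rragc, except an item that is not reported here; others are said to be named after their values were seen. Each library is taken from a separate mouse; if several shared one, p-values would measure only the spread between libraries. Replicate numbers follow accession order.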

Additional observations from a re-analysis of the deposited data

Results flagged for a closer look

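In 26 sets of 5 values (each member and each within-mouse difference from Cd74, by genotype), the highest or lowest mouse was compared with the others by Dixon's gap, with a critical value of 0.71, and chance alone passes about 1 set in 20. H2-Aa in Rragc+/+ replicate 1 had 535.843 normalized counts, and the gap to the next mouse was 0.750 of the range. H2-Ab1 in the same mouse had 935.672, with a gap of 0.721 of the range. Both genes encode chains of the same molecule in the same library, so these are not independent. Without this mouse the log2 fold changes were -0.08 for H2-Aa and 0.09 for H2-Ab1, and neither passed the test.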

How the results depend on the processing

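The count of members called was 0 under all 22 alternatives. H2-Aa, Cd74, H2-DMb1 and Ciita kept their direction in each, except that the mean filter of 50 gave no value for Ciita. Leaving out a mouse moved H2-Aa (main -0.16) to -0.06 without RragcS74N/+ replicate 3, -0.08 without Rragc+/+ replicate 1 and -0.26 without RragcS74N/+ replicate 5. H2-DMb1 (main -0.44) moved to -0.23, -0.28 and -0.68 without RragcS74N/+ replicates 1, 2 and 4 (lowest limma adjusted p 0.0974), Ciita (main -0.41) ranged from -0.60 without RragcS74N/+ replicate 4 to -0.19 without replicate 3, and Cd74 from 0.26 to 0.54. The sign of H2-Ab1 reversed under quantile normalization (-0.016) and, with a range of -0.12 to 0.13 over the fits that left out a mouse, without Rragc+/+ replicate 3, 4 or 5 or RragcS74N/+ replicate 4 or 5. Leaving out each mouse gave H2-Eb1 -0.031 to 0.16, negative without RragcS74N/+ replicate 5, and H2-DMa -0.11 to 0.28, negative without RragcS74N/+ replicate 4 or 5. The main count of 487 genes called became 291 without the trend, 832 with the covariate for library codes, and 295 to 4.7e+02 with a mouse left out, lowest without Rragc+/+ replicate 5 and next, at 310, without Rragc+/+ replicate 4. The cause was not tested. The 8 calls over all fixed lists became 5 without the trend and in the higher run of codes alone (chosen after seeing the data), and 5 to 11 with a mouse left out, with 5 without Rragc+/+ replicate 1, 2, 4 or 5 or RragcS74N/+ replicate 4. Among the 8, Ighg2b, Ighg2c, Cytip, Umod and Slc12a3 were called in all alternatives, while Ctsl, Tapbp and Ms4a7 were not. The median r of member pairs ranged from 0.618 to 0.714. No paired analysis was possible because the replicate numbers only name the mice. The SE of the log2 fold change was largest for Ciita (0.274), H2-DMa (0.257) and H2-DMb1 (0.251), the members with the fewest reads. In RragcS74N/+ their SDs were 3.09, 4.03 and 5.07 times that of counting error alone.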
